A study of Rattus norvegicus with 12 samples.

Results

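The AP-1 transcription factor family was described here by its 8 core genes, *Fos*, *Fosb*, *Fosl1*, *Fosl2*, *Jun*, *Junb*, *Jund* and *Atf3*. They were chosen by gene name, and all 8 were among the 17337 genes of the count table. RNA sequencing had been done on the whole striatum of 12 adult male Sprague–Dawley rats, all wild type, with 1 bulk library per rat and 4 rats per group. By their labels, all 12 rats had gone through 16 days of methamphetamine (MA) self-administration, in which lever presses delivered intravenous MA. MA12 rats were killed 12 h and MA24 rats 24 h after the last session. The third group carries the label non-addicted. For it neither the labels nor the methods give the criterion or the time of killing, and the study's methods describe no group of that name. No rats labelled as saline controls or as killed straight after MA were analysed here. By the labels, every comparison thus lies between rats that had taken MA. For the non-addicted rats this rests on the sample titles alone.

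AP-1 is a dimer of basic leucine zipper proteins. Fos proteins (FOS, FOSB, FOSL1, FOSL2) pair with Jun proteins, while JUN, JUNB and JUND also pair with each other, and ATF3 joins Jun proteins or binds with itself. In the striatum, dopamine and glutamate input switches on *Fos* and *Junb* within minutes and briefly, as immediate-early genes, whereas ΔFOSB, a truncated and long-lived product of *Fosb*, builds up under repeated drug exposure. Transcript levels of this kind show what was made shortly before the tissue was taken, and the counts do not part ΔFosB from full-length *Fosb*.

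Each rat had from 17908962 to 23850284 counts in all. No pair of rats within a group agreed within counting noise, the lowest chi-square per degree of freedom among the 18 pairs being 9.72. All 10 of 10 markers of striatal projection neurons were measured, with a summed level of 14158 to 18624 CPM (counts scaled to a common library total) per rat. Markers of mural cells (7 of 7) summed to 91.1–120 CPM in the non-addicted rats, 136–223 in MA12 and 124–151 in MA24, and the 7 of 7 endothelial markers to 325–456, 424–542 and 510–558 CPM. The 5 of 5 oligodendrocyte markers summed to 10951–16349 CPM in the non-addicted, 11341–20561 in MA12 and 17091–19961 in MA24 rats. In bulk striatum, fewer cells of a type and less RNA per cell cannot be told apart. Rat numbers ended in N for all 4 MA24 rats, for 2 of the 4 MA12 rats and for none of the non-addicted rats, and the meaning of N is not stated in the sources used here. For MA24 vs. non-addicted, the group and this kind of number cannot be told apart. For MA24 vs. MA12, time since the last session and clock time cannot be told apart either.

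No AP-1 member was a differentially expressed gene (DEG) in any of the 3 comparisons. A DEG had an adjusted p below 0.05 (edgeR quasi-likelihood test, Benjamini-Hochberg over all genes tested) and a fold change (FC) of at least 1.5. In MA24 vs. MA12, 0 of 8 members were DEGs, where 2.45% of the 10754 genes tested were. In non-addicted vs. MA12, 0 of 8 were DEGs, against 0.251% of 10758 genes, and in non-addicted vs. MA24, 0 of 8, against 0.456% of 10744 genes. The likelihood ratio test of edgeR also called 0 of 8 in each, and so did DESeq2, except that it gave *Atf3* no adjusted p in MA24 vs. MA12, where it called 0 of 7. At an unadjusted p below 0.05 there were 0 members in MA24 vs. MA12 (all genes 23.6%), 2 in non-addicted vs. MA12 (all genes 12.3%) and 2 in non-addicted vs. MA24 (all genes 17.5%), and in both cases these were *Fosb* and *Fosl2*. The median log2FC of the 8 members was 0.02, 0.00198 and 0.04 in the 3 comparisons, beside -0.02, -0.01 and 0.0031 over all genes tested. What set the members apart from one another was how far they varied among rats of one group.

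**Figure D1:**
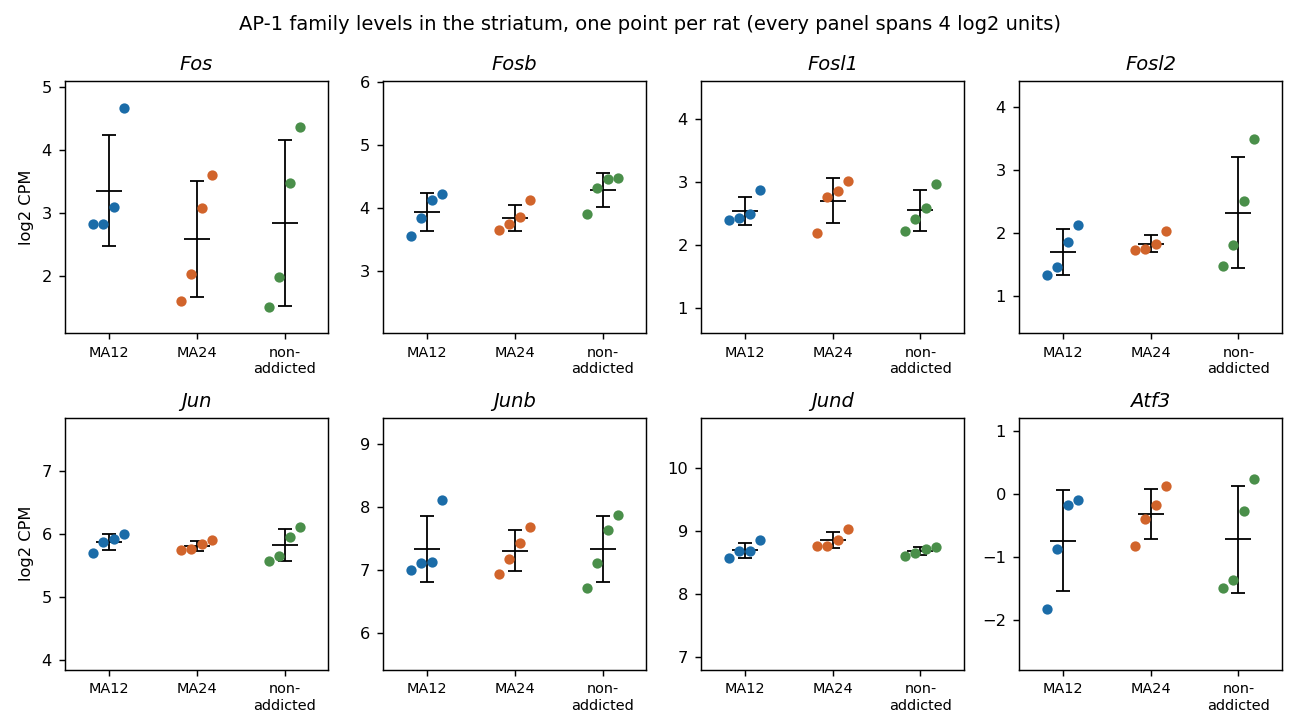
Level of each AP-1 member in log2 CPM (vertical axis) in MA12, MA24 and non-addicted rats. Each point is 1 rat, and bars give the mean ± SD over 4 rats. All panels span the same number of log2 units, so that the wide scatter of Fos can be read against the narrow scatter of Jund, whose 4 MA24 rats lie narrowly above the 4 non-addicted rats under TMM scaling but not under RLE.

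*Fos*, the prototype immediate-early gene of the family, varied most. Levels are given as log2 CPM, scaled by TMM with a prior count of 2. In the non-addicted rats 9, 11, 12 and 13, *Fos* stood at 1.51, 3.47, 1.98 and 4.36, from 53, 223, 94 and 393 counts. In MA12 rats 21, 31, 4N and 7N it stood at 3.09, 2.83, 2.83 and 4.67, and in MA24 rats 9N, 14N, 15N and 16N at 2.03, 3.61, 3.08 and 1.61. Rat 7N lay apart from the other MA12 rats, while the non-addicted rats fell into a low pair (9 and 12) and a high pair (11 and 13), and the ranges of the 3 groups overlapped. The highest level over the 12 rats was 9.20-fold the lowest, and within the non-addicted group alone the range was 7.41-fold. The group means ran from MA12 (3.36 ± 0.89, SD, n = 4) over the non-addicted (2.83 ± 1.32) to MA24 (2.58 ± 0.92), and no neighbours in this order differed beyond their spread.

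Between MA24 and MA12 the log2FC of *Fos* was -0.80 (SE 0.40, 95% interval -1.64 to 0.04, adjusted p = 0.237). This value rested on single rats, since it was -0.11 when MA12 rat 7N was left out and -1.22 when MA24 rat 14N was. Among the rats numbered with N alone it was -1.23 (adjusted p = 0.0615), but there MA12 consisted of rats 4N and 7N only. With a covariate for N or no N, and all 3 groups in the fit, the log2FC was -1.24. Between non-addicted and MA12 rats the log2FC was -0.33 (SE 0.48, interval -1.33 to 0.67, adjusted p = 0.835), and it turned to 0.35 without rat 7N and fell to -1.02 without non-addicted rat 13. Against MA24 it was 0.47 (SE 0.47, adjusted p = 0.616), -0.24 without rat 13, 0.89 without rat 14N and 1.54 (SE 0.87, adjusted p = 0.940) with the covariate for N. The effect of N in that fit comes from the MA12 rats alone, so the last value does not separate N from group. With 4 rats per group, intervals this wide left room for a change of *Fos* past 1.5-fold in either direction in the second comparison.

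*Fosb*, which gives rise to both FOSB and ΔFOSB, had a steadier level. It stood at 3.90, 4.48, 4.32 and 4.46 in the non-addicted rats, at 4.13, 3.55, 3.83 and 4.23 in MA12 and at 4.12, 3.74, 3.85 and 3.64 in MA24, from 235 to 486 counts. Non-addicted rats 11, 12 and 13 were the 3 highest of the 12, while rat 9 lay below the highest MA12 and MA24 rats, so that the groups overlapped. The mean was 4.29 ± 0.27 in the non-addicted, 3.94 ± 0.31 in MA12 and 3.84 ± 0.21 in MA24 rats. Against MA24 the non-addicted level was 1.37-fold higher (interval 1.10 to 1.70, log2FC 0.45, SE 0.15, unadjusted p = 0.00735), which did not pass after adjustment (adjusted p = 0.148). Against MA12 the log2FC was 0.35 (SE 0.16, adjusted p = 0.387). MA24 and MA12 differed by -0.10 (SE 0.16, interval -0.44 to 0.23, adjusted p = 0.730). The summed mural markers were lower in all 4 non-addicted rats than in every MA12 and MA24 rat, and the choroid plexus markers (5 of 5, with *Ttr* and *Kcnj13* at 0 in some rats) were higher in every non-addicted rat (6.04–23.4 CPM) than in every MA24 rat (2.74–4.29 CPM), with 2.16–8.15 CPM in MA12. The 4 measured of 5 ependymal markers summed to 39.2–101 CPM in the non-addicted, 26.9–71.5 in MA12 and 28.1–45.2 in MA24 rats. Endothelial and oligodendrocyte markers were lower in every non-addicted than in every MA24 rat. The part of any of these cells in the *Fosb* difference was not tested.

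*Fosl1* encodes FRA-1 and *Fosl2* encodes FRA-2, both of which come on later than FOS in many cells. *Fosl1* stood between 2.20 and 3.02 in all 12 rats (88 to 190 counts), with means of 2.56 ± 0.32 in the non-addicted, 2.55 ± 0.22 in MA12 and 2.71 ± 0.36 in MA24. Its log2FC was 0.18 (SE 0.21) in MA24 vs. MA12, 0.02 (SE 0.21) in non-addicted vs. MA12 and -0.16 (SE 0.22) in non-addicted vs. MA24, with adjusted p of 0.641, 0.983 and 0.724. No group stood apart for *Fosl1*. MA12 rat 4N, at 2.88, lay above the other MA12 rats (2.40 to 2.49). MA24 rat 14N, at 2.20, lay below the other MA24 rats (2.77 to 3.02).

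*Fosl2* was high in 2 of the non-addicted rats. The non-addicted rats stood at 1.49, 3.49, 2.51 and 1.82, from 52, 226, 137 and 66 counts. The MA12 rats stood at 2.13, 1.47, 1.35 and 1.87 and the MA24 rats at 1.73, 1.83, 1.76 and 2.04. Rats 11 and 12 of the non-addicted group lay above all MA12 and MA24 rats, and rats 9 and 13 lay among them. The log2FC of *Fosl2* was 0.81 (SE 0.35, interval 0.08 to 1.54, unadjusted p = 0.0319, adjusted p = 0.347) against MA12 and 0.71 (SE 0.33, interval 0.01 to 1.40, unadjusted p = 0.0459, adjusted p = 0.277) against MA24. Without non-addicted rat 11 these values were 0.28 and 0.17. In MA24 vs. MA12 the log2FC was 0.11 (SE 0.26, adjusted p = 0.838). The spread of *Fosl2* within a group was 0.89 in the non-addicted rats, 0.36 in MA12 and 0.14 in MA24.

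The Jun genes supply the obligate partners of the Fos proteins. *Junb* acts as an immediate-early gene, whereas *Jund* is made steadily in most tissues. Their promoters are shown because these genes were, among the Jun genes, the one with the widest and the one with the narrowest range over the 12 rats (2.62-fold for *Junb*, 1.38-fold for *Jund*). The sequences are from RefSeq, assembly GRCr8, from 250 bases before to 50 after the start site, read along the gene's strand, 5′ to 3′. The window of *Junb* is chr19:40080876-40081175 on the plus strand and that of *Jund* chr16:18769722-18770021 on the minus strand. Capitals mark the TATA box (TATAAA), the CCAAT box (CCAAT), and the cAMP response element (TGACGTCA) or its shorter form TGACG on either strand, and every full element also holds the shorter form.
Junb: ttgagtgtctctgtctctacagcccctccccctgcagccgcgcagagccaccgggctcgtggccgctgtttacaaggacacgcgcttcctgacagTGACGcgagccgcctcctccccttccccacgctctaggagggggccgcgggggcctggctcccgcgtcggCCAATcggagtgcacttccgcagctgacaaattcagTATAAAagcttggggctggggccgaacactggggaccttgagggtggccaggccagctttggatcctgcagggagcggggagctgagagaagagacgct
Jund: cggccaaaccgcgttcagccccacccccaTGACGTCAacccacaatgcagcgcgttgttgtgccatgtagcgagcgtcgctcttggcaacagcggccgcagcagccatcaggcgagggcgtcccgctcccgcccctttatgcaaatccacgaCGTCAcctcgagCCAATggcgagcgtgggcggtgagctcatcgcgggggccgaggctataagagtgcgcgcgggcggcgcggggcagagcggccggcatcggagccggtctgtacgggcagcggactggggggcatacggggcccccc

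The *Junb* window held a TATA box from -49 to -44 and a CCAAT box from -85 to -81 relative to the start site, with TGACG from -155 to -151. The *Jund* window held no TATAAA but a full cAMP response element from -221 to -214, the short form on the opposite strand from -98 to -94 and a CCAAT box from -86 to -82. Only the exact letters TATAAA were searched for, and the *Jund* window did hold the near form TATAAG. On either strand, TATAAA occurred in 14.2% of the 33469 RefSeq promoter windows of this length, CCAAT in 37.5%, TGACGTCA in 1.83% and TGACG in 21.2%. Windows were at hand for 5 of the 8 members, *Fosb*, *Fosl1*, *Fosl2*, *Junb* and *Jund*. Of these, 3 held TGACG and 3 the GC box GGGCGG (33.1% of all windows), while the letters of the AP-1 site TGANTCA (7.33% of all windows) and of the serum response element (1.64%) were in none of the 5 windows. These matches are letters in a short window and no measure of binding. The G and C share of the *Junb* window was 65.3% and that of *Jund* 69.7%, where the median over all windows was 51.7%.

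*Junb* followed the same rats as *Fos*. Its level was 7.11, 7.64, 6.73 and 7.88 in the non-addicted rats 9, 11, 12 and 13. It was 7.12, 7.01, 7.11 and 8.11 in MA12 rats 21, 31, 4N and 7N and 6.94, 7.69, 7.43 and 7.18 in MA24 rats 9N, 14N, 15N and 16N. Rat 7N was again far above its group, and the counts of 2578 to 4910 left a counting error of only about 0.0246 on the log2 scale. The group means were nearly level, at 7.34 ± 0.52 in the non-addicted, 7.34 ± 0.52 in MA12 and 7.31 ± 0.32 in MA24. The log2FC was -0.08 (SE 0.20, interval -0.49 to 0.34, adjusted p = 0.845) in MA24 vs. MA12, -0.02 (SE 0.23, adjusted p = 0.986) in non-addicted vs. MA12 and 0.06 (SE 0.19, adjusted p = 0.880) in non-addicted vs. MA24. The first value became 0.27 without rat 7N.

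*Jun*, the founding member of its subfamily, stood between 5.57 and 6.11 in all 12 rats, from 962 to 1397 counts. Its mean was 5.82 ± 0.25 in the non-addicted, 5.87 ± 0.13 in MA12 and 5.81 ± 0.08 in MA24 rats. The log2FC was -0.06 (SE 0.08, interval -0.24 to 0.12, adjusted p = 0.708) in MA24 vs. MA12. The variance filter removed *Jun* from this comparison, so the value is from the fit without that filter. In non-addicted vs. MA12 it was -0.04 (SE 0.12, interval -0.29 to 0.20, adjusted p = 0.918) and in non-addicted vs. MA24 0.02 (SE 0.12, interval -0.23 to 0.26, adjusted p = 0.948). All 3 intervals lay inside a 1.5-fold change.

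*Jund* was the member with the smallest spread. It was also the only one with a pair of groups that did not overlap, by a narrow margin. The non-addicted rats stood at 8.71, 8.65, 8.59 and 8.75 and the MA24 rats at 8.85, 8.75, 8.76 and 9.02, so that every MA24 rat lay above every non-addicted rat. The gap between the lowest MA24 and the highest non-addicted rat was 0.00777, and with RLE in place of TMM scaling the gap was -0.00032, so that the groups overlapped. The MA12 rats, at 8.56, 8.67, 8.84 and 8.67, lay across both. In non-addicted vs. MA24, 1 of 8 members thus had groups that did not overlap, where 10% of all genes tested had. In the other comparisons 0 of 8 had, against 15.6% of all genes in MA24 vs. MA12 and 7.1% in non-addicted vs. MA12. The log2FC of *Jund* in non-addicted vs. MA24 was -0.18 (SE 0.10, interval -0.38 to 0.02, unadjusted p = 0.0756, adjusted p = 0.328). It was -0.02 (SE 0.15, adjusted p = 0.996) with the covariate for N in the rat number. The effect of N in that fit comes from the MA12 rats alone, so this value does not separate N from group. The summed oligodendrocyte, endothelial and mural markers were also higher in every MA24 than in every non-addicted rat, and the choroid plexus markers were lower. The part of these cells in the *Jund* difference was not tested. In MA24 vs. MA12 the log2FC was 0.16 (SE 0.10, adjusted p = 0.331). In non-addicted vs. MA12 it was -0.02 (SE 0.08, adjusted p = 0.949, from the fit without the variance filter, which removed the gene).

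*Atf3*, a stress-induced gene of the ATF branch, was close to the limit of measurement. Its counts were 21, 6, 18 and 5 in the non-addicted rats, 20, 19, 4 and 8 in MA12 and 11, 16, 13 and 19 in MA24, with full overlap. The levels were -0.71 ± 0.85, -0.74 ± 0.80 and -0.31 ± 0.40. The log2FC was 0.34 (SE 0.55, interval -0.82 to 1.5, adjusted p = 0.743) in MA24 vs. MA12, 0.06 (SE 0.60, interval -1.21 to 1.33, adjusted p = 0.983) in non-addicted vs. MA12 and -0.29 (SE 0.55, interval -1.45 to 0.87, adjusted p = 0.813) in non-addicted vs. MA24. Each of these 3 intervals held a change of 2-fold in at least 1 direction, so that a change of that size in that direction was not excluded. In RefSeq the spans of *Atf3* and *Fosb* overlap those of *Garin4* and of the long non-coding RNA LOC103691049. Neither neighbour was in the count table. The counts were made on rn6, for which the overlaps were not checked. The library kit does not mark strand, so reads from such neighbours cannot be told apart.

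**Figure D2:**
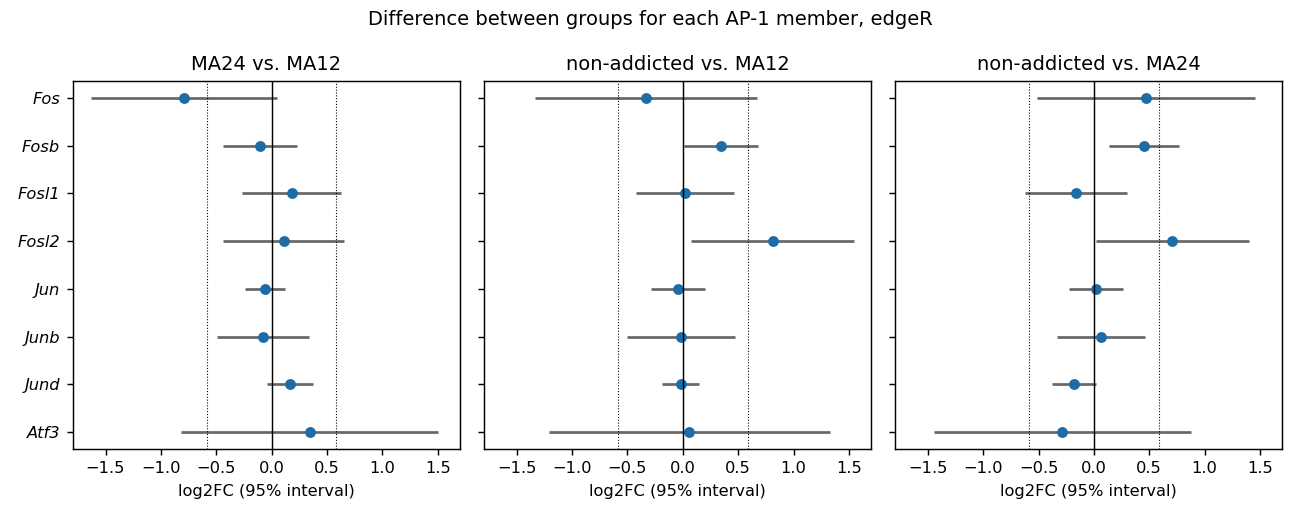
Log2FC of each AP-1 member in MA24 vs. MA12, non-addicted vs. MA12 and non-addicted vs. MA24 (edgeR). Points are the estimates, horizontal bars the 95% intervals, and dotted lines a 1.5-fold change. Intervals are narrow for Jun and Jund, wide for Fos and Atf3, and lie above 0 only for Fosb and Fosl2 in the comparisons with non-addicted rats, before adjustment over all genes.

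The members were next set against genes of a like count, since low counts alone widen the spread. The SD within groups, pooled over the 3 groups, was 1.06 for *Fos*, while the median over the 2704 genes with a mean count within 2-fold of that of *Fos* was 0.237, and 99.6% of these genes varied less. *Junb* had an SD of 0.463 against a median of 0.109 over 2262 genes, and again 99.6% varied less. *Fosl2* (0.558 against 0.338) varied more than 88.8% of its like-count genes, *Fosb* (0.265 against 0.184) more than 81.1% and *Jun* (0.169 against 0.126) more than 77.3%. *Fosl1* (0.305 against 0.278), *Jund* (0.107 against 0.112) and *Atf3* (0.711 against 0.717) were close to the median of theirs. Counting error alone would give an SD of about 0.105 for *Fos* and 0.395 for *Atf3*. These shares are a description of the 12 libraries, with no test.

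**Figure D3:**
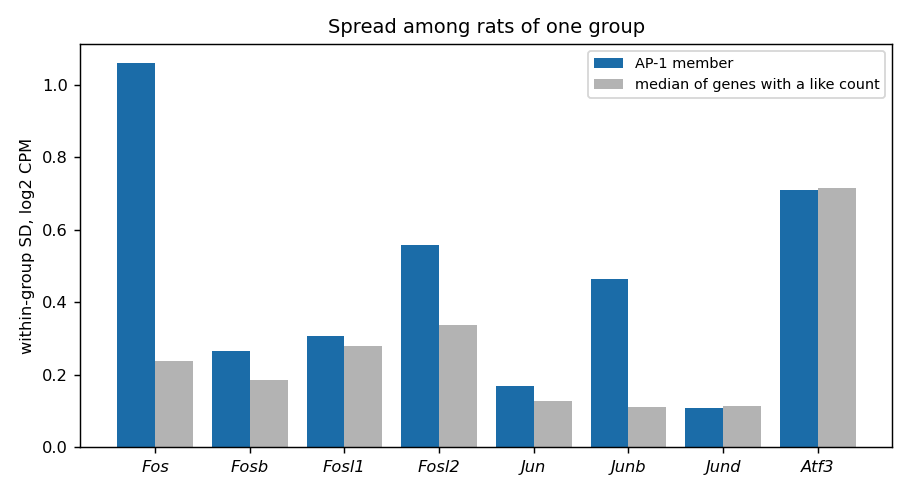
SD of log2 CPM among rats of one group, pooled over the 3 groups, for each AP-1 member (blue bars) and the median of the genes with a mean count within 2-fold of it (grey bars). The bars of Fos (1.06 against 0.237) and Junb (0.463 against 0.109) stand far above those of their like-count genes, while those of Jund and Atf3 are close to theirs.

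*Fos* and *Junb* moved together from rat to rat. Over the 12 rats Pearson's r of their levels was 0.86 and Spearman's rho 0.78. After the group means were removed r was 0.90, so the relation was present within groups, and without the rats farthest from the median of *Fos* (MA12 7N and non-addicted 9) it was 0.83. Without the rats farthest from the median of *Junb* (MA12 7N and non-addicted 13) it was 0.69. The 4 rats with the most *Fos* (MA12 7N, non-addicted 13, MA24 14N and non-addicted 11) were the same 4 as for *Junb*, in the same order, and came from all 3 groups. These correlations are descriptions with no test, and all points share the scaling for depth.

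Other pairs were looser. *Jun* and *Atf3* ran in opposite directions (r = -0.71, rho = -0.66, and -0.72 after removal of the group means), although *Atf3* rested on at most 21 counts per rat. *Fosl1* ran against *Fos* (r = -0.56, rho = -0.53). *Fosb* and *Fosl2* had r = 0.62 and rho = 0.57, which was 0.38 without non-addicted rat 11 and MA12 rat 31. *Jun* and *Junb* had r = 0.50, and *Fos* and *Fosb* 0.40. *Fos* and *Fosl2* (0.11) and *Junb* and *Jund* (-0.05) were close to 0. The 4 highest rats of *Fos* held 3 of the 4 highest for *Fosb* and for *Jun*, 1 for *Fosl2* and 0 for *Fosl1*, *Jund* and *Atf3*.

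**Figure D4:**
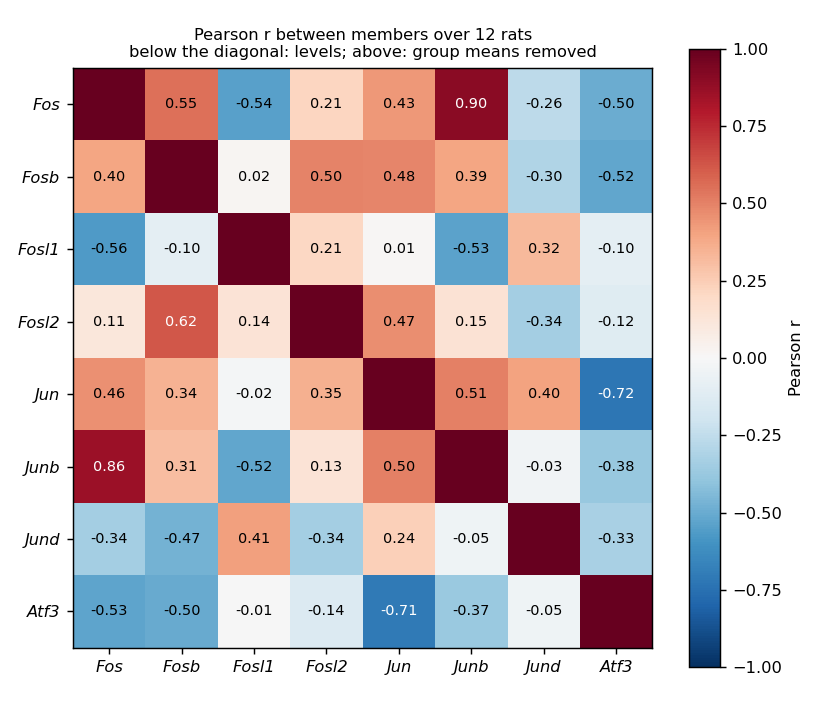
Pearson's r between AP-1 members over 12 rats, from -1 (blue) to 1 (red). Cells below the diagonal use the log2 CPM levels and cells above it the levels with group means removed. Fos with Junb is the deepest red (0.86 and 0.90) and Jun with Atf3 the deepest blue (-0.71 and -0.72).

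The genes whose levels followed each member most closely over the 12 rats were then read from the 10758 genes outside the family with a mean count of at least 50. For *Fos* they were *Dusp1* (r = 0.91), *Arc* (0.87) and *Dusp6* (0.86), and for *Junb* they were *Dusp1* (0.92), *Arc* (0.90) and *Plekhf1* (0.89). *Dusp1* and *Dusp6* encode phosphatases that switch off MAP kinases, and *Arc* is an immediate-early gene whose protein acts at synapses. *Arc* had 1213, 4107, 1540 and 3799 counts in the non-addicted rats, 2597, 2733, 2944 and 5919 in MA12 and 2573, 4062, 3364 and 2273 in MA24. *Dusp1* had 592, 1261, 655 and 1387 counts in the non-addicted, 1009, 1037, 1036 and 1456 in MA12 and 893, 1066, 939 and 776 in MA24. The 4 rats highest in *Fos* were also the 4 highest in *Arc*, *Dusp1* and *Plekhf1*, and 3 of them were among the 4 highest in *Dusp6*.

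**Figure D5:**
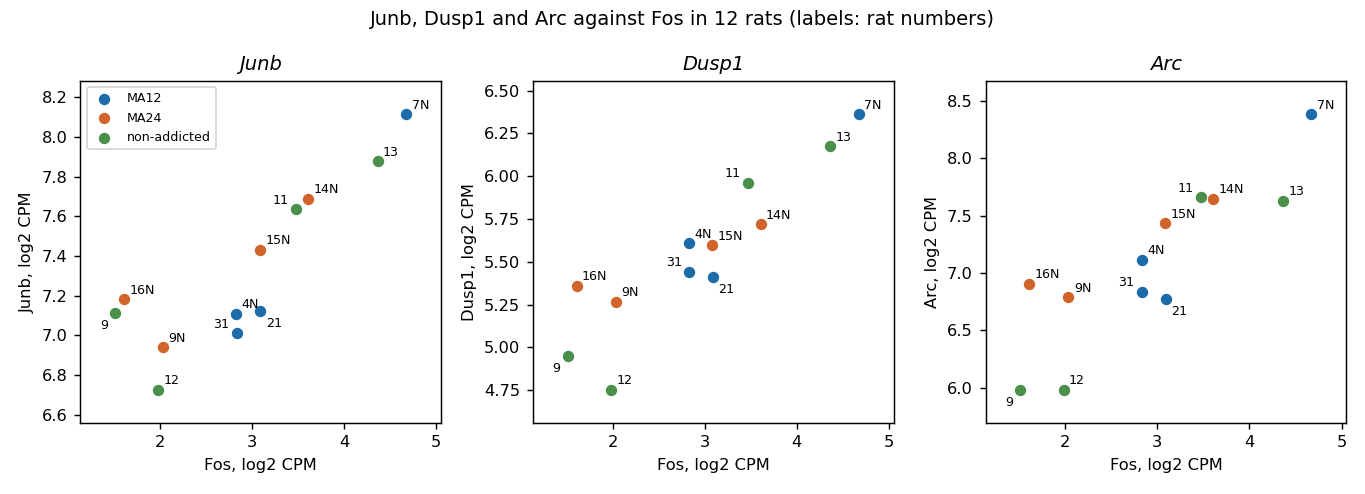
Levels of Junb, Dusp1 and Arc (vertical axes, log2 CPM) against Fos (horizontal axis, log2 CPM) in 12 rats, coloured by group and labelled by rat number. MA12 rat 7N is at the top right of every panel and non-addicted rats 9 and 12 at or near the bottom left, with rats of all groups mixed in between.

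*Fosl2* was followed by LOC619574 (r = 0.93), by *Dnajb1* (0.90), a heat shock co-chaperone, and by *Nr4a3* (0.86), an immediate-early nuclear receptor. *Nr4a3* had 577 counts in non-addicted rat 11 and 229 in rat 12, against 53 to 195 in the other 10 rats, and its 4 highest rats were the 4 highest for *Fosl2*, in the same order. Without rats 11 and 12 the r values were 0.73, 0.59 and 0.56, so the likeness rested in part on these animals. The 4 highest rats of *Dnajb1* were those of *Fosb*. *Fosb* was followed by LOC689986 (0.90), *Fam84a* (0.89) and *Cdyl* (0.86), with values of 0.84 to 0.91 without its 2 farthest rats.

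*Jund* was followed by *Tpgs1* (r = 0.96), *Pink1* (0.93), a kinase of mitochondrial quality control, and *Nlrx1* (0.93). *Jun* was followed by *Slc6a8* (0.88), the creatine transporter, *Atoh8* (0.87) and *Otud7b* (0.85). *Fosl1* was followed by *Tom1* (0.83), *Srebf1* (0.81), a regulator of lipid synthesis, and *Psen2* (0.81). *Atf3* was followed by *Tia1* (0.91), an RNA-binding protein of stress granules, *Gpn3* (0.87) and *Ccdc86* (0.85). Each list holds the 3 highest of 10758 values of r, which are high by choice.

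Of the further proteins that can pair with Fos or Jun, the ATF, BATF, JDP2 and MAF genes, 12 of 14 were in the count table and 8 or 9 were tested per comparison. None was a DEG in any comparison with edgeR, with DESeq2 or with the likelihood ratio test, and 2 of 8, 0 of 9 and 1 of 8 had an unadjusted p below 0.05, where 23.6%, 12.3% and 17.5% of all genes tested had. Their median log2FC was -0.08 in MA24 vs. MA12, -0.05 in non-addicted vs. MA12 and 0.07 in non-addicted vs. MA24, beside -0.02, -0.01 and 0.0031 over all genes. *Atf2*, a partner of JUN at cAMP response elements, came closest. MA12 rats stood at 5.69 ± 0.09 and MA24 rats at 5.28 ± 0.14 (log2FC -0.40, SE 0.10, adjusted p = 0.0313) without overlap, a difference that passed on adjusted p but not on FC. Its non-addicted level of 5.63 ± 0.13 also did not overlap that of MA24 (log2FC 0.34, SE 0.11, adjusted p = 0.136). *Maf* had the largest change in non-addicted vs. MA12 (log2FC -0.20, adjusted p = 0.652).

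The kinases and factors that act on AP-1 genes and proteins, from MAP kinases and ribosomal S6 kinases to *Srf* and *Elk1*, were all in the table (19 of 19), and 11, 13 and 9 of them were tested. None was a DEG with any of the 3 tools, and 4 of 11, 3 of 13 and 2 of 9 had an unadjusted p below 0.05 (all genes 23.6%, 12.3% and 17.5%). The median log2FC was -0.17, -0.11 and 0.13, beside -0.02, -0.01 and 0.0031 over all genes. *Rps6ka1*, a ribosomal S6 kinase downstream of ERK, was at 4.01 ± 0.16 in the non-addicted and 4.57 ± 0.22 in MA12 rats, without overlap (log2FC -0.58, SE 0.13, adjusted p = 0.0699), and against MA24 its log2FC was -0.40 (adjusted p = 0.228). *Map3k1*, a kinase upstream of JNK, had the largest change in MA24 vs. MA12 (log2FC -0.38, adjusted p = 0.290).

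Of the textbook targets of AP-1 or ΔFOSB, 17 of 18 were in the table, and 13, 12 and 12 were tested. With edgeR the only DEG was *Pdyn*, called in non-addicted vs. MA12 by all 3 tools, which makes 1 of 12 targets against 0.251% of all genes. Other filters, left-out rats and the covariate for N were tried for the AP-1 members but not for *Pdyn*. Over all genes, the alternatives gave between 1 and 93 DEGs in this comparison, where the main fit gave 27. At an unadjusted p below 0.05 there were 4 of 13, 3 of 12 and 2 of 12 targets (all genes 23.6%, 12.3% and 17.5%). *Pdyn* encodes the opioid precursor prodynorphin of striatal projection neurons. It was lower in non-addicted than in MA12 rats (8.16 ± 0.23 against 8.82 ± 0.15, log2FC -0.65, SE 0.12, adjusted p = 0.0281), the groups did not overlap, and counts were between 4601 and 10714 per rat. *Hmox1*, the stress-induced heme oxygenase, had the largest change in MA24 vs. MA12 (2.47 ± 0.31 to 3.09 ± 0.15, log2FC 0.61, SE 0.20, adjusted p = 0.0764), and its groups did not overlap. It was not a DEG with edgeR but was called by DESeq2. *Vim*, an intermediate filament of glia and vessels, had the largest in non-addicted vs. MA24 (log2FC 0.32, adjusted p = 0.213). The median log2FC over the targets was -0.05, 0.11 and -0.07, beside -0.02, -0.01 and 0.0031 over all genes. *Batf2*, *Mafa* and *Sirt1* were not analysed here.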

How the data were processed

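Per the labels and the study's methods, poly-A libraries (TruSeq RNA v2, which does not mark strand) were sequenced as paired-end reads. The authors trimmed reads with cutadapt 1.18, aligned them with STAR 2.7.0e to rn6 and counted them per gene with featureCounts. Their processing notes also name HTSeq 0.12.4. The deposited values are raw counts, not normalized, and counts of overlapping genes are uncertain. For each comparison, genes had to average more than 4 counts, and the least variable 15% (on log2 CPM) were then dropped. edgeR 4.0.16 (R 4.3.3; TMM, glmQLFit, glmQLFTest) was fitted to all remaining genes of the 2 groups, with DESeq2 1.42.0, other filters, scaling and left-out rats as alternatives. A member removed by the variance filter is given from the fit without it. No p was adjusted over the members alone. The fit was tested on simulated counts. RefSeq promoters (GRCr8) were used for sequence only. Genes outside the family were named by rule: the 3 with the highest Pearson correlation to each member, and from each pathway list those past the threshold or, failing that, with the largest log2FC at a mean count of at least 50. The rule for the members names genes and uses no measured value, but the members, lists and tests were chosen with earlier results of these data known.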

Additional observations from a re-analysis of the deposited data

Results flagged for a closer look

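In the MA12 group, rat 7N lay far above the other 3 rats for *Fos* and *Junb*. For *Fos*, the gap of rat 7N to the next rat made up 0.859 of the range of the group, and for *Junb* it made up 0.898, both above Dixon's 95% critical value for 4 rats. Over the 24 sets of 4 rats examined (8 members in 3 groups), 1.2 such gaps are expected by chance, and 2 were found. Both come from the same rat, which was also the highest of all 12 in *Arc*, *Dusp1* and *Plekhf1*. Those genes were picked because they followed *Fos* or *Junb* over the same 12 rats, so their levels in rat 7N are no separate evidence.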

How the results depend on the processing

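The count of AP-1 members called stayed at 0 in all 50 alternative fits. *Atf3* could not be called in 4 of them, since it gave no value where at least 10 counts were required in every library and no adjusted p by DESeq2 in MA24 vs. MA12. Of the recomputed log2FC values, 358 kept their sign and did not pass the threshold, 39 turned sign without passing it, and none passed it. With a covariate for N or no N in the rat number (all 3 groups in the fit), non-addicted vs. MA12 turned to 0.30 for *Fos*, 0.0549 for *Jun*, 0.34 for *Junb*, 0.0648 for *Jund* and -0.44 for *Atf3*, and non-addicted vs. MA24 to 0.15 for *Fosl1*. The same covariate widened *Fos* to 1.54 (SE 0.87), *Junb* to 0.71 (SE 0.38) and *Atf3* to -1.63 (SE 0.96) in non-addicted vs. MA24, each with an adjusted p of 0.940. It also widened *Fos* to -1.24 and *Atf3* to 1.19 in MA24 vs. MA12, and brought *Jund* in non-addicted vs. MA24 to -0.02 (SE 0.15). In this fit the effect of N comes from the MA12 rats alone, the only group with both kinds of number. For non-addicted vs. MA24 its values carry that MA12 difference over and do not separate N from group. With only rats numbered without N, non-addicted vs. MA12 gave 0.31 for *Fos*, 0.0648 for *Jun*, 0.35 for *Junb*, 0.0644 for *Jund* and -0.43 for *Atf3*. In that fit MA12 consisted of rats 21 and 31 only, so rat 7N was left out as well. Leaving out rat 7N alone gave 0.35 for *Fos* and 0.34 for *Junb*. The cause of these changes of sign was not tested. When each rat was left out in turn, MA24 vs. MA12 ranged from -0.22 to 0.0109 for *Fosb*, -0.00639 to 0.29 for *Fosl2* and -0.22 to 0.27 for *Junb*. Non-addicted vs. MA12 ranged from -1.02 to 0.35 for *Fos*, -0.15 to 0.16 for *Fosl1*, -0.14 to 0.0332 for *Jun*, -0.20 to 0.34 for *Junb*, -0.0602 to 0.0464 for *Jund* and -0.38 to 0.32 for *Atf3*. Non-addicted vs. MA24 ranged from -0.24 to 0.89 for *Fos*, -0.0848 to 0.10 for *Jun* and -0.14 to 0.23 for *Junb*. *Fosb* in non-addicted vs. MA24 kept its sign in all 16 alternatives (0.38 to 0.64), with an adjusted p of at least 0.0573. No paired analysis was possible because the groups share no rat numbers. The narrow gap of *Jund* between MA24 and non-addicted rats turned from 0.00777 to -0.00032 with RLE scaling, an alternative chosen after seeing the data. Counts of DEGs over all genes moved by more than 1.5 times, from 264 to between 4 and 436 in MA24 vs. MA12, from 27 to between 1 and 93 in non-addicted vs. MA12 and from 49 to between 0 and 199 in non-addicted vs. MA24.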
